A study of Mus musculus with 8 samples.

Results

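The Ly6 cluster surface genes described here are Ly6e, Ly6i, Ly6a, Ly6c1, Ly6c2 and Ly6g, 6 genes chosen by name out of 34199 in the count files. All 6 had a row in the files, and 5 of them passed the filter on low counts that left 13080 genes for testing. Ly6i did not pass. The counts came from bulk RNA-seq of iGMPs, mouse granulocyte-macrophage progenitors of strain C57Bl/6 that self-renew as long as a fusion of HOXA9 and the ligand-binding domain of the estrogen receptor is active. They grow in stem cell factor and report lysozyme promoter activity by GFP. Each of the 4 groups had 2 libraries. Uninduced cells were kept with estradiol at 150 ng/ml, which keeps the HOXA9 fusion active, and were taken at 0 h. CAF-1 OFF cells were kept with the same estradiol and given IPTG at 500 µM for 48 h, which switches on an shRNA against Chaf1b, a subunit of the histone chaperone CAF-1. The IPTG-treated control cells had estradiol and IPTG for 48 h, with the IPTG concentration and the control vector not given in the labels. HOXA9 OFF cells were left without estradiol for 48 h. The inducible cells are clonal lines, and the labels say neither which clone a library came from nor that the libraries of a group were separate cultures. A supplementary legend of the study mentions RNA-seq tracks of 2 sub-clones without tying a library to either, so the p-values measure only the spread between these libraries.

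Ly6 genes encode small surface proteins with a compact, disulfide-bonded LU domain, most of them held in the outer membrane by a glycosylphosphatidylinositol (GPI) anchor. In the mouse many lie side by side on chromosome 15. Several have long been used as antibody targets to sort blood cells. Ly-6C, the product of Ly6c1 and Ly6c2, is carried at high levels by inflammatory monocytes and at lower levels by granulocytes. Ly-6G is a marker of neutrophils, and the Gr1 antibody that the study used in flow cytometry binds Ly-6G and also Ly-6C. Ly6a encodes Sca-1, a marker of hematopoietic stem cells that interferons induce in many cells. Ly6e encodes a broadly expressed relative that also responds to interferons.

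The 6 genes lie within 204 kb of chromosome 15 in the mm9 build, the build named in the submitters' processing notes, and their positions are those of GENCODE vM1. Ly6e is at chr15:74785481-74790335 on the plus strand and Ly6g at chr15:74987123-74989169 on the same strand. Between them, on the minus strand, lie Ly6i at chr15:74810242-74813860, Ly6a at chr15:74825308-74828064, Ly6c1 at chr15:74875447-74879260 and Ly6c2 at chr15:74938590-74942114. Ly6c1 and Ly6c2 are near copies: their coding sequences of 396 bases differ at 9 positions, which leaves them 97.7% identical, and the longest identical stretch runs for 188 bases. The first 90 coding bases hold 6 of these 9 positions and are shown, in the coding direction from the mm9 transcripts, because reads across them can tell the genes apart, as can reads across the other 3 positions and across differences outside the coding sequence. Capitals mark the differing bases.
Ly6c2: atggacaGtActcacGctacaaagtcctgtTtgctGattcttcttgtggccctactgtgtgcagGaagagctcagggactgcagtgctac
Ly6c1: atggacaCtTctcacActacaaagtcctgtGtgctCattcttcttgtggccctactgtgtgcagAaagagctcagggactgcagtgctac

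Of the exonic stretches of 50 bases, 69.0% in Ly6c2 and 69.4% in Ly6c1 occurred once in the mm9 genome, against 87.2% in Ly6a, 88.4% in Ly6i, 99.2% in Ly6g and 100% in Ly6e. The read length was not given in the sources used here, so these shares describe the sequences and not the reads. Reads that match both Ly6c genes could be left out or assigned to the wrong copy, so the split between Ly6c1 and Ly6c2 counts is uncertain. Ly6a and Ly6i were 86.4% identical in their aligned coding bases, whereas Ly6e was 59.9% to 66.9% identical to the other genes. The vM1 model of Ly6g holds 336 coding bases and no untranslated end. If the authors counted over the same model, reads from the ends of that transcript were not counted.

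RefSeq start-site windows were matched for 3 of the 6 genes, Ly6c1, Ly6c2 and Ly6g, and not for Ly6a, Ly6e and Ly6i. The first window listed for each, 250 bases before to 50 bases after the start, is shown for comparison of these close relatives. Coordinates are those of GRCm38.p6, sequences run in the direction of the gene, and capitals mark the letters GAGGAAG, which ETS factors can bind, and TATAAA, the TATA box, searched on both strands.
Ly6c2, chr15:75111922-75112221, minus strand: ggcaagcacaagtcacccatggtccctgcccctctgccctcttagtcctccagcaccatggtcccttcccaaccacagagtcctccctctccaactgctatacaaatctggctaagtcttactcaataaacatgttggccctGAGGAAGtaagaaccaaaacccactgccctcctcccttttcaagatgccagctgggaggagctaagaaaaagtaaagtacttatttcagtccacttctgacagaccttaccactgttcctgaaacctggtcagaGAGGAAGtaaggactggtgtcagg
Ly6c1, chr15:75048788-75049087, minus strand: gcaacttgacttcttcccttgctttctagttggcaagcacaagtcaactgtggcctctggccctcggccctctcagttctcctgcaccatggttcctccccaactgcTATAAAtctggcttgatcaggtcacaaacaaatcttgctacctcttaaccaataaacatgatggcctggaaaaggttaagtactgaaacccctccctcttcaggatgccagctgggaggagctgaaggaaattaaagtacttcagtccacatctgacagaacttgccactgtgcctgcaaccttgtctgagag
Ly6g, chr15:75155011-75155310, plus strand: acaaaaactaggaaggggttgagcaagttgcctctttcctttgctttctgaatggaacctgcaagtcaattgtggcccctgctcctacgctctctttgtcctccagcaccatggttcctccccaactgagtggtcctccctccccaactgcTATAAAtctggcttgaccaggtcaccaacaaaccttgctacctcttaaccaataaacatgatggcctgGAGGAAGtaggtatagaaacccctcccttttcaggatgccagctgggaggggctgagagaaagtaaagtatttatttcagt

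The Ly6c2 window held GAGGAAG at 108 bases before and 26 bases after the start and no TATAAA. The Ly6g window held GAGGAAG at 31 bases and TATAAA at 99 bases before the start, and the Ly6c1 window held TATAAA at 143 bases before the start and no GAGGAAG. A second, overlapping window is listed for each gene from another start. That of Ly6c1 held GAGGAAG at 127 bases before its start, in bases that begin at the very end of the first window and run past it. The end of the first Ly6c1 window therefore cuts off this copy. The copies at 108 bases before the Ly6c2 start and 31 bases before the Ly6g start lie among bases that the first Ly6c1 window also holds. The letters GAGGAAG themselves were not at that place in Ly6c1. The second Ly6c1 window matched mm9 chromosome 15 exactly at 2 places, chr15:74879044-74879343 at Ly6c1 and chr15:74828138-74828437 just upstream of Ly6a, whereas each first window matched there once. Of 32851 windows of this length, 13.6% held GAGGAAG and 13.6% held TATAAA. TTGCNNAA, letters of a C/EBP site, occurred in the first Ly6g window, not in the second, and in 10.8% of all windows. GAAANNGAA of interferon response elements (8.56% of all windows), TTCNNNGAA of STAT sites (8.3%) and TGATTNAT of HOX-PBX sites (3.22%) were in none of the 6 windows of these genes. These are descriptions of the letters and show no binding.

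Total gene counts ran from 14044284 to 22423837 per library. Counts were scaled by the TMM method to counts per 1000000 reads in genes (CPM), and a gene was called when its false discovery rate (FDR) in edgeR's quasi-likelihood test across all 13080 genes fell below 0.05 with a change of 1.5-fold or more. Chaf1b, the targeted gene, stood at 96.8 and 100 CPM in the uninduced libraries, 95.1 and 102 CPM in the IPTG-treated control, 18.7 and 9.72 CPM in CAF-1 OFF and 48.3 and 41.0 CPM in HOXA9 OFF. The uninduced cells had the progenitor genes Cd34 (1872 and 1711 CPM) and Kit (638 and 613 CPM). The T cell genes Cd3e, Cd3g and Cd8a were at 0 in every library. Lck, another T cell gene, was not, with means of 4.02 CPM in uninduced cells, 5.74 in CAF-1 OFF and 0.129 in HOXA9 OFF. IPTG-treated control replicate 1 had 14.6% of its uniquely aligned reads outside annotated genes, against 5.30% to 7.79% in the other libraries.

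Ly6c2 rose strongly under both treatments, from a mean of 24.2 CPM to 223 and 207 CPM, and its levels in CAF-1 OFF and HOXA9 OFF overlapped. Ly6c2 stood at 29.4 and 18.95 CPM in the uninduced libraries and at 27.5 and 19.0 CPM in the IPTG-treated control. It reached 139 and 307 CPM in CAF-1 OFF and 240 and 174 CPM in HOXA9 OFF. All 4 treated libraries lay far above all 4 control libraries, while the CAF-1 OFF pair enclosed the HOXA9 OFF pair. The means were 24.2 ± 7.40 (SD, n = 2) in uninduced cells, 223 ± 119 in CAF-1 OFF and 207 ± 46.4 in HOXA9 OFF. These cells were measured in bulk, so more cells with the transcript and more transcript per cell cannot be told apart here or in any result that follows.

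Ly6c2 was called in CAF-1 OFF against uninduced cells, with a log2 fold change of 3.21 (SE 0.42, 9.24-fold, edgeR FDR 0.00543), and against the IPTG-treated control, with 3.27 (SE 0.42, FDR 0.00563). In HOXA9 OFF against uninduced cells the log2 fold change was 3.10 (SE 0.41, 8.57-fold, FDR 0.000469). Directly compared, CAF-1 OFF and HOXA9 OFF differed by 0.11 on the log2 scale (95% interval -0.77 to 0.99, FDR 0.828). The size of the CAF-1 OFF change leaned on replicate 2 of that group, without which the log2 fold change was 2.53 (FDR 0.0207) against uninduced cells, 2.59 (FDR 0.0222) against the IPTG-treated control and -0.57 (FDR 0.224) against HOXA9 OFF. Without CAF-1 OFF replicate 1 the difference from HOXA9 OFF was 0.57 (FDR 0.208). The call against uninduced cells was lost without uninduced replicate 1 (FDR 0.0501), and that against the IPTG-treated control without IPTG-treated control replicate 2 (FDR 0.0562).

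**Figure D1:**
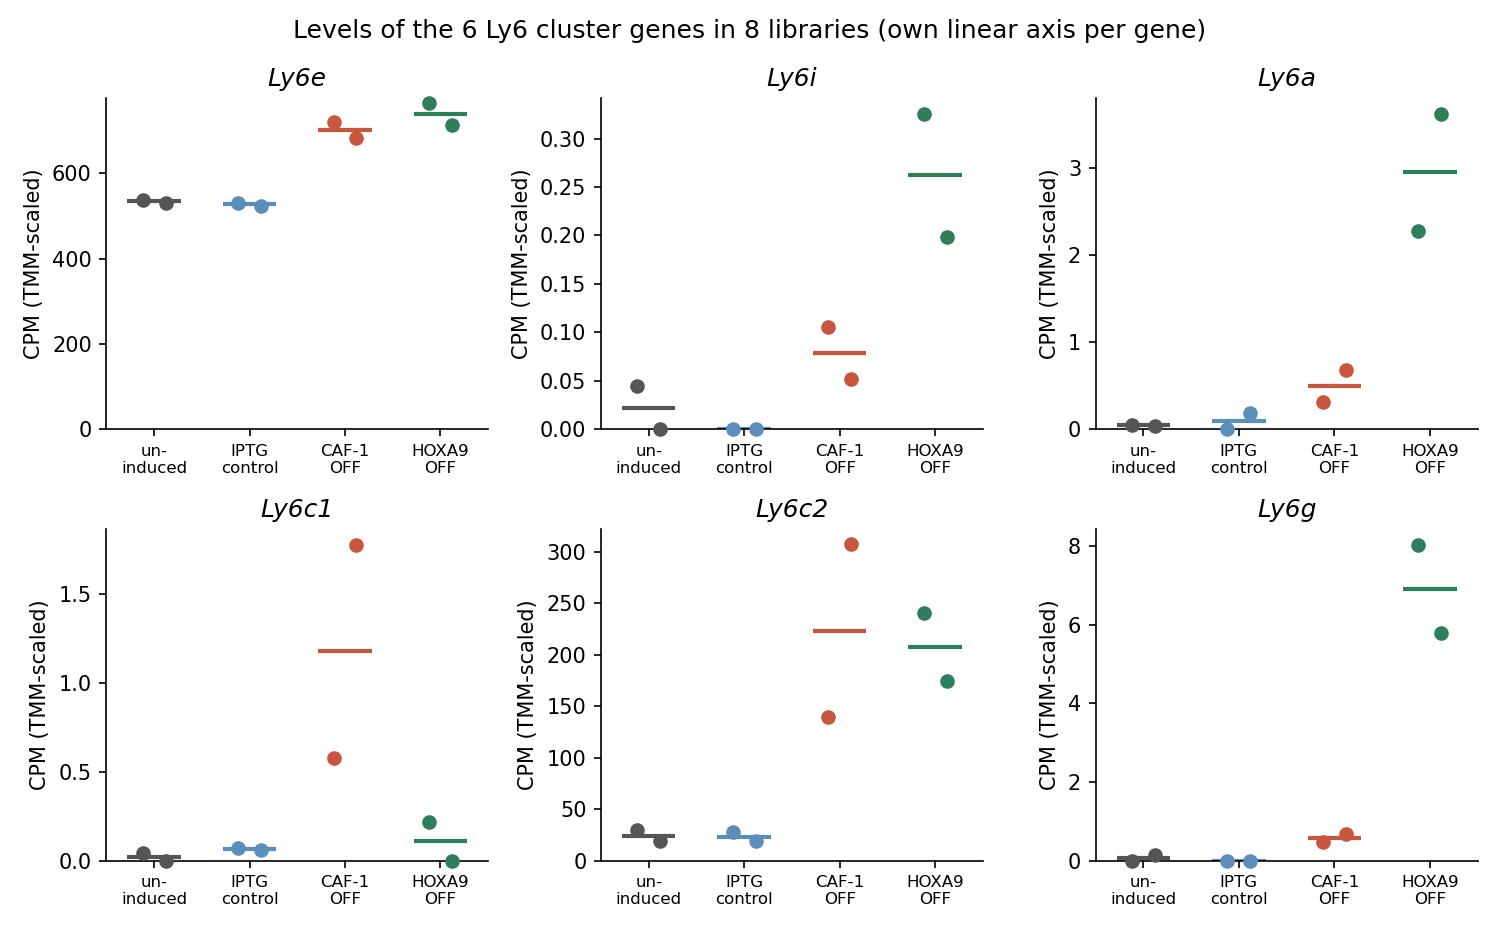
Level of each of the 6 Ly6 cluster genes in TMM-scaled CPM (vertical axis, linear from 0, its own range for each gene) in the 4 groups (horizontal axis). Points are the 2 libraries of a group and bars their mean; Ly6c2 is high in both CAF-1 OFF and HOXA9 OFF, Ly6c1 in CAF-1 OFF, and Ly6g and Ly6a in HOXA9 OFF.

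Ly6c1, the near copy of Ly6c2, was highest in CAF-1 OFF, at very low counts. Its raw counts were 1 and 0 in the uninduced libraries, 1 and 1 in the IPTG-treated control, 11 and 34 in CAF-1 OFF and 4 and 0 in HOXA9 OFF. Only the CAF-1 OFF libraries of the 8 held more than 4 counts, and they did not overlap any other group. The highest of these levels, 1.78 CPM in CAF-1 OFF replicate 2, was still far under the 307 CPM of Ly6c2 in the same library. Against uninduced cells the scaled counts of CAF-1 OFF were 54.1-fold as high, with a counting interval of 9.23 to 2180, and the gene was called (edgeR FDR 0.0277). Against the IPTG-treated control the ratio was 18 (4.70 to 153) and the gene was not called (FDR 0.0571). HOXA9 OFF gave a ratio of 4.75 to uninduced cells with an interval from 0.47 to 234 (FDR 0.361), and all of its 4 counts were in replicate 1.

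The difference of Ly6c1 between the treatments was tested directly: the level in CAF-1 OFF exceeded that in HOXA9 OFF by 3.41 log2 units (edgeR FDR 0.0298, SE 1.08). With so few reads these calls depended on single libraries. The difference between the treatments was 2.39 without CAF-1 OFF replicate 2, 2.40 without HOXA9 OFF replicate 2 and 7.505 without HOXA9 OFF replicate 1, where the remaining HOXA9 OFF library is at 0 and the value depends on the prior count. A fit of only the groups compared (FDR 0.0665) and DESeq2 (adjusted p 0.0847) also lost this call. The fitted log2 change against uninduced cells, 5.38, moved to 7.46 without uninduced replicate 1, where the remaining uninduced library is at 0, to 4.53 without uninduced replicate 2 and to 4.37 without CAF-1 OFF replicate 2, and that against the IPTG-treated control, 4.04, to 3.02 without CAF-1 OFF replicate 2. The uncalled value of HOXA9 OFF against uninduced cells, 1.97, became -2.13 without HOXA9 OFF replicate 1, 2.98 without HOXA9 OFF replicate 2, and 4.06 or 1.12 without uninduced replicate 1 or 2. The call against uninduced cells was lost without uninduced replicate 1 (FDR 0.122) or 2 (0.136), without CAF-1 OFF replicate 2 (0.200) and without IPTG-treated control replicate 1 (0.0543) or 2 (0.0547). The call against HOXA9 OFF was lost without CAF-1 OFF replicate 2 (FDR 0.223), without HOXA9 OFF replicate 2 (0.112) and without IPTG-treated control replicate 1 (0.0553) or 2 (0.0549). That against the IPTG-treated control was gained without HOXA9 OFF replicate 1 (FDR 0.0343) or 2 (0.0317), in a fit of only the groups compared (0.0268) and with no filter on low counts (0.0446).

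Because reads could be assigned to the wrong Ly6c copy, the Ly6c1 share of the summed Ly6c1 and Ly6c2 counts was also taken in each library. The share was 0.414% in CAF-1 OFF replicate 1, with a 95% Clopper-Pearson interval of 0.207% to 0.739%, and 0.575% in replicate 2 (0.398% to 0.802%). In HOXA9 OFF it was 0.0903% in replicate 1 (0.0246% to 0.231%), and 0 of 3519 counts in replicate 2 (0 to 0.105%, with the floor of 3 counts at 0.0853%). Both CAF-1 OFF shares lay above both HOXA9 OFF shares although the Ly6c2 counts of the groups overlapped, and every measured share was under 1%. In the uninduced and IPTG-treated control libraries, with 311 to 662 counts for the pair, the shares ran from 0 to 0.322% and the intervals reached from 0.829% to 1.78% at their upper ends, so a difference from the CAF-1 OFF shares was not detectable at this depth. These intervals cover counting error only, since PCR copies are counted as reads. The sum of Ly6c1, Ly6c2 and Ly6i, which leaves out Ly6a although it shares stretches of 50 bases with Ly6c2 and Ly6i, was 140 and 309 CPM in CAF-1 OFF and 241 and 175 CPM in HOXA9 OFF, close to Ly6c2 alone.

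Ly6g, the neutrophil marker, had almost no reads in the progenitors, few in CAF-1 OFF and 11.9-fold higher levels in HOXA9 OFF than in CAF-1 OFF. Its raw counts were 0 and 3 in the uninduced libraries, 0 and 0 in the IPTG-treated control, 9 and 13 in CAF-1 OFF and 148 and 117 in HOXA9 OFF. In CPM these were 0.474 and 0.680 in CAF-1 OFF and 8.03 and 5.80 in HOXA9 OFF. The groups fell into 3 separate steps, with both control groups lowest, CAF-1 OFF between and HOXA9 OFF highest, with no overlap between steps. HOXA9 OFF was called against uninduced cells (edgeR FDR 0.000479), with scaled counts 105 times as high and a counting interval of 35.5 to 512. Leaving out uninduced replicate 1 or 2 moved its fitted log2 fold change from 6.59 to 5.68 or 10.00, the latter with the remaining uninduced library at 0, so that this value depends on the prior count of the fit.

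CAF-1 OFF differed from the IPTG-treated control, where no Ly6g read was counted, by at least 2.72-fold, taking 3 counts per library as the floor (edgeR FDR 0.0300). Against uninduced cells the ratio was 8.82 (counting interval 2.65 to 46.0) and the edgeR FDR of 0.0510 missed the threshold. It passed with no filter on low counts (edgeR FDR 0.0276). All 3 uninduced counts were in uninduced replicate 2. The fitted log2 value of 3.02 became 2.11 without uninduced replicate 1 and 6.43 without uninduced replicate 2, where the remaining library is at 0 and the value depends on the prior count. The call against the IPTG-treated control was lost without CAF-1 OFF replicate 1 (FDR 0.0658) or 2 (0.148) and without IPTG-treated control replicate 1 (0.113) or 2 (0.126). The direct comparison held without each library: CAF-1 OFF was 3.57 lower than HOXA9 OFF on the log2 scale (SE 0.62, FDR 0.00318). For each 1000 Ly6c2 counts there were 33.4 and 33.2 Ly6g counts in HOXA9 OFF and 3.40 and 2.21 in CAF-1 OFF, so libraries with like Ly6c2 levels had unlike Ly6g levels.

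**Figure D2:**
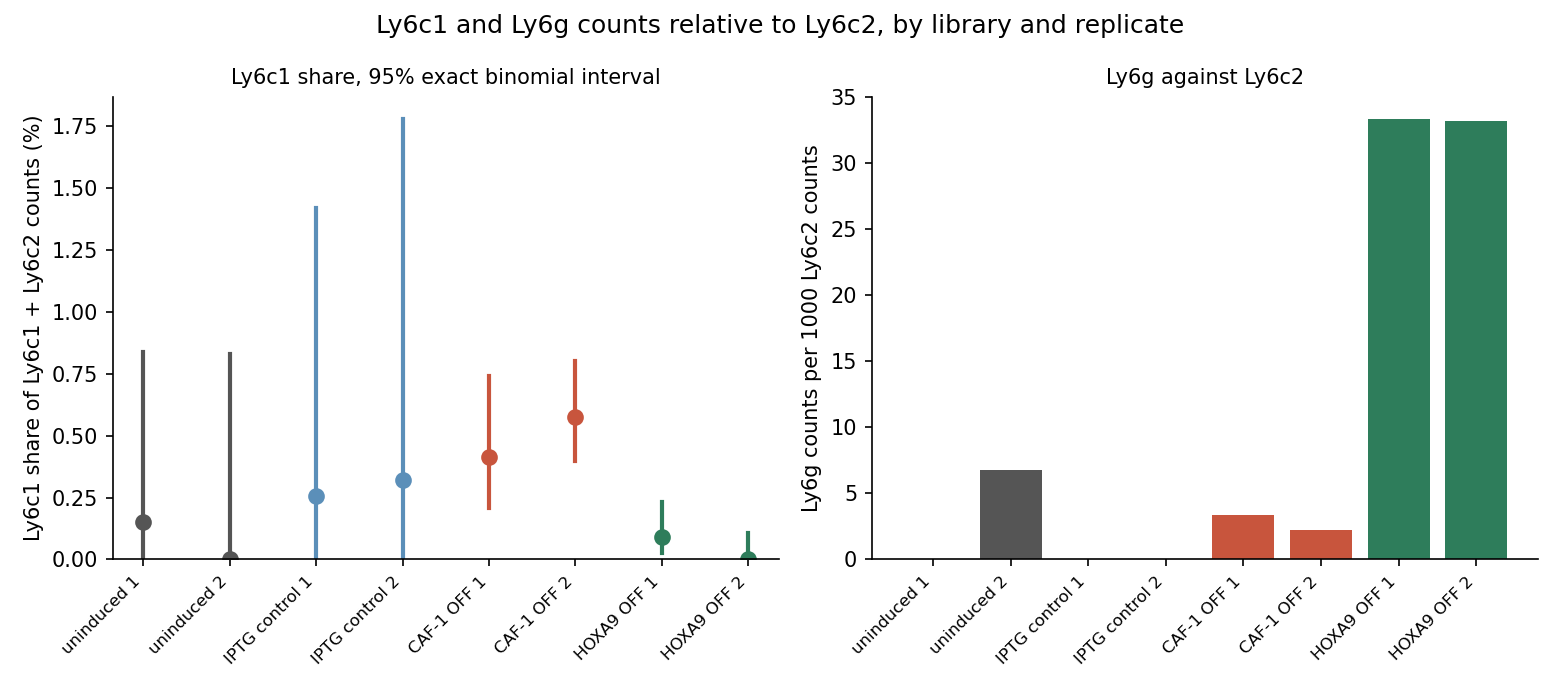
Left, Ly6c1 counts as a percentage of Ly6c1 plus Ly6c2 counts in each library, with 95% Clopper-Pearson intervals; right, Ly6g counts per 1000 Ly6c2 counts in each library. The 2 CAF-1 OFF libraries have the highest Ly6c1 shares, 0.414% and 0.575%, and the 2 HOXA9 OFF libraries the highest Ly6g ratios, 33.4 and 33.2.

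Ly6a, which encodes Sca-1, was almost silent in the progenitors and followed the order of Ly6g. The raw counts were 1 and 1 in uninduced cells, 0 and 3 in the IPTG-treated control, 6 and 13 in CAF-1 OFF and 42 and 73 in HOXA9 OFF. In CPM these were 0.316 and 0.680 in CAF-1 OFF and 2.28 and 3.62 in HOXA9 OFF. CAF-1 OFF again lay between the control groups and HOXA9 OFF without overlap. HOXA9 OFF was called against uninduced cells (edgeR FDR 0.000866), at a ratio of scaled counts of 68.3 with a counting interval of 18.5 to 571. CAF-1 OFF against uninduced cells gave a ratio of 11.4 (2.76 to 101) and an FDR of 0.0484, just inside the threshold, and against the IPTG-treated control a ratio of 5.06 (1.49 to 26.7) with an FDR of 0.127. The fitted log2 value of the latter, 2.28, moved to 1.38 or 6.30 without IPTG-treated control replicate 1 or 2 and to 1.64 without CAF-1 OFF replicate 2, which also moved the value against uninduced cells from 3.33 to 2.68. Without IPTG-treated control replicate 2 the remaining control library is at 0, so that value depends on the prior count. CAF-1 OFF was lower than HOXA9 OFF by 2.55 on the log2 scale (SE 0.67, FDR 0.0133).

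The Ly6a call in CAF-1 OFF against uninduced cells did not survive leaving out either library of 3 groups. The FDR was 0.197 without uninduced replicate 1, 0.168 without uninduced replicate 2, 0.072 without CAF-1 OFF replicate 1 and 0.256 without CAF-1 OFF replicate 2, and 0.0526 or 0.0567 without HOXA9 OFF replicate 1 or 2. The call against HOXA9 OFF was lost without CAF-1 OFF replicate 1 (FDR 0.0989) and without HOXA9 OFF replicate 2 (FDR 0.0666). Without CAF-1 OFF replicate 2 the Ly6a difference from HOXA9 OFF was larger, at -3.19 on the log2 scale (FDR 0.0404).

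Ly6e was the abundant member in every group and changed little. The uninduced libraries had 538 and 531 CPM, with 531 and 524 CPM in the IPTG-treated control, 721 and 682 CPM in CAF-1 OFF and 764 and 713 CPM in HOXA9 OFF. All treated libraries were above all control libraries, and the CAF-1 OFF and HOXA9 OFF pairs overlapped. The change was 0.39 on the log2 scale in CAF-1 OFF (SE 0.10, 1.31-fold, edgeR FDR 0.0286) and 0.47 in HOXA9 OFF (SE 0.10, 1.38-fold, FDR 0.00414), both with an FDR under 0.05 and a fold under the 1.5 needed for a call. Against the IPTG-treated control the CAF-1 OFF change was 0.41 (FDR 0.0271). CAF-1 OFF and HOXA9 OFF differed by -0.07 (95% interval -0.30 to 0.15, FDR 0.541). Scaling by library size alone moved the median of all genes in HOXA9 OFF against uninduced cells from 0.01 to -0.18 and the Ly6e change there to 0.28, and it turned the Ly6e difference between CAF-1 OFF and HOXA9 OFF to 0.16.

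Ly6i had 1 and 0 counts in uninduced cells, 0 and 0 in the IPTG-treated control, 2 and 1 in CAF-1 OFF and 6 and 4 in HOXA9 OFF. It failed the filter and was not tested. Both HOXA9 OFF libraries were above all the others, at a ratio of scaled counts to uninduced cells of 11.9 with a counting interval of 1.69 to 516.

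**Figure D3:**
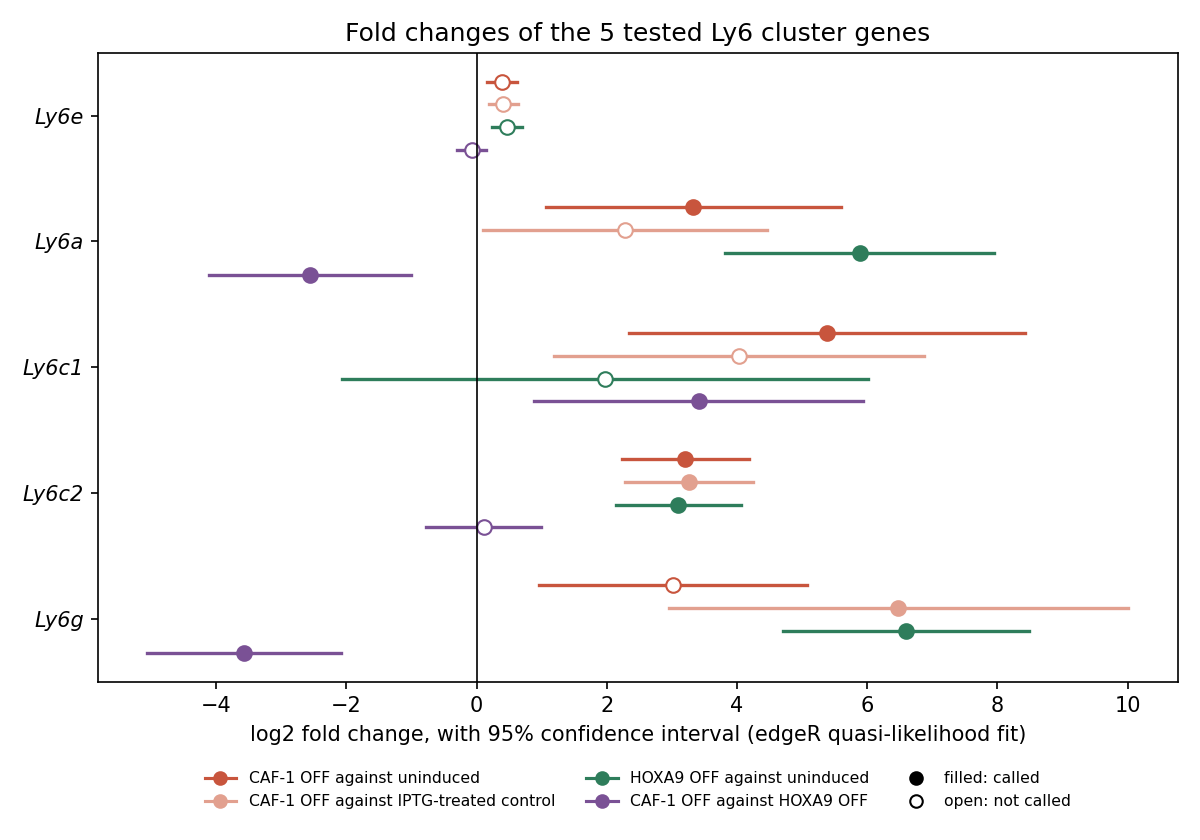
Log2 fold changes (horizontal axis) of the 5 tested Ly6 cluster genes in 4 comparisons, with 95% confidence intervals from the edgeR quasi-likelihood fit; filled points were called at an FDR under 0.05 and at least 1.5-fold. For CAF-1 OFF against HOXA9 OFF, Ly6c1 lies above 0, Ly6a and Ly6g lie below 0, and Ly6c2 and Ly6e lie at 0.11 and -0.07. Fitted values of genes with a group at 0 depend on the prior count.

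In CAF-1 OFF against uninduced cells 3 of the 5 tested members were called higher (Ly6a, Ly6c1 and Ly6c2) and 0 lower, beside 10.5% of all tested genes called higher and 3.5% called lower. In HOXA9 OFF against uninduced cells 3 were higher (Ly6a, Ly6c2 and Ly6g) and 0 lower, beside 25.2% and 22.1% of all genes. Against the IPTG-treated control CAF-1 OFF had 2 members higher (Ly6c2 and Ly6g) and 0 lower, beside 9.56% and 3.2% of all genes. Between the treatments, CAF-1 OFF had 1 member higher (Ly6c1) and 2 lower (Ly6a and Ly6g) than HOXA9 OFF, beside 22.2% and 21.4%. The members called higher against uninduced cells in either treatment included 2, Ly6a and Ly6c2, that were called in both, in comparisons that share the uninduced libraries. Low-count members could pass the filter only through the group in which they were high, so these counts are descriptions of named genes.

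In the IPTG-treated control against uninduced cells 0 of the 5 tested members and 0% of all genes were called by edgeR, and 0 members by DESeq2. Across all genes 100 had an unadjusted p under 0.05. Ly6c2 differed by -0.06 on the log2 scale (95% interval -0.997 to 0.88) and Ly6e by -0.02 (-0.24 to 0.20). Ly6a, Ly6c1, Ly6g and Ly6i had at most 3 counts in each library of both groups.

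Levels of different genes were compared per kb of the longest vM1 transcript. In uninduced cells Ly6e stood at 234 CPM per kb and Ly6c2 at 30.4. In CAF-1 OFF their means were 308 and 281 CPM per kb, but the order differed between libraries, with Ly6e at 316 and Ly6c2 at 175 in replicate 1 and Ly6e at 299 and Ly6c2 at 386 in replicate 2. In HOXA9 OFF the means were 324 and 260 CPM per kb. Per kb of coding sequence alone, Ly6e was above Ly6c2 in both CAF-1 OFF libraries, at 1755 against 352 and 1659 against 776 CPM per kb. Taking each other gene in its highest group, the order was Ly6g in HOXA9 OFF, at 20.6 CPM per kb of its coding-only model, Ly6a in HOXA9 OFF, at 3.60, Ly6c1 in CAF-1 OFF, at 1.40, and Ly6i in HOXA9 OFF, at 0.298. Summed over the 6 genes, the level was 568 and 550 CPM in uninduced cells, 558 and 543 in the IPTG-treated control, 862 and 993 in CAF-1 OFF and 1015 and 897 in HOXA9 OFF. The make-up of the sum shifted: Ly6e gave 94.8% and 96.5% of member counts in the uninduced libraries, 83.7% and 68.7% in CAF-1 OFF and 75.3% and 79.5% in HOXA9 OFF, with Ly6c2 making up nearly all of the remainder.

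The rest of the region was mostly silent. Of 26 annotated genes with a row in the files from Psca to Gpihbp1, a stretch of 883 kb, 12 had more than 3 counts in any library, and 6 of those are the members. The list of other Ly6 cluster genes, 12 of 13 of which were in the files, had 2 tested genes. Ly6f, on the far side of Ly6g from Ly6c2, had 0 and 2 counts in the uninduced libraries, 3 and 8 in CAF-1 OFF, 0 and 0 in the IPTG-treated control and 64 and 28 in HOXA9 OFF. It was called higher in HOXA9 OFF (edgeR FDR 0.00354) and lower in CAF-1 OFF than in HOXA9 OFF by 3.04 on the log2 scale (SE 0.83, FDR 0.0196), as Ly6g and Ly6a were. The second, 2010109I03Rik, had 2 to 24 counts per library and was not called in any comparison, and Ly6d and Lynx1 reached 4 and 5 counts and were not tested.

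A pair of further genes was picked by position after the values had been seen. Gm10238, between Ly6g and Ly6f, had 0 counts in all 4 control libraries, 9 and 12 in CAF-1 OFF and 61 and 30 in HOXA9 OFF, and was 2.11 lower on the log2 scale in CAF-1 OFF than in HOXA9 OFF, with an SE of 0.61 and an edgeR FDR of 0.0299. 4930572J05Rik, 234 kb before Ly6e, went the other way from the members. Its mean was 61.7 CPM in uninduced cells, 35.4 in CAF-1 OFF and 14.6 in HOXA9 OFF, a fall of 0.80 (SE 0.15, FDR 0.0128) and of 2.08 (SE 0.15, FDR 3.39e-05) on the log2 scale.

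**Figure D4:**
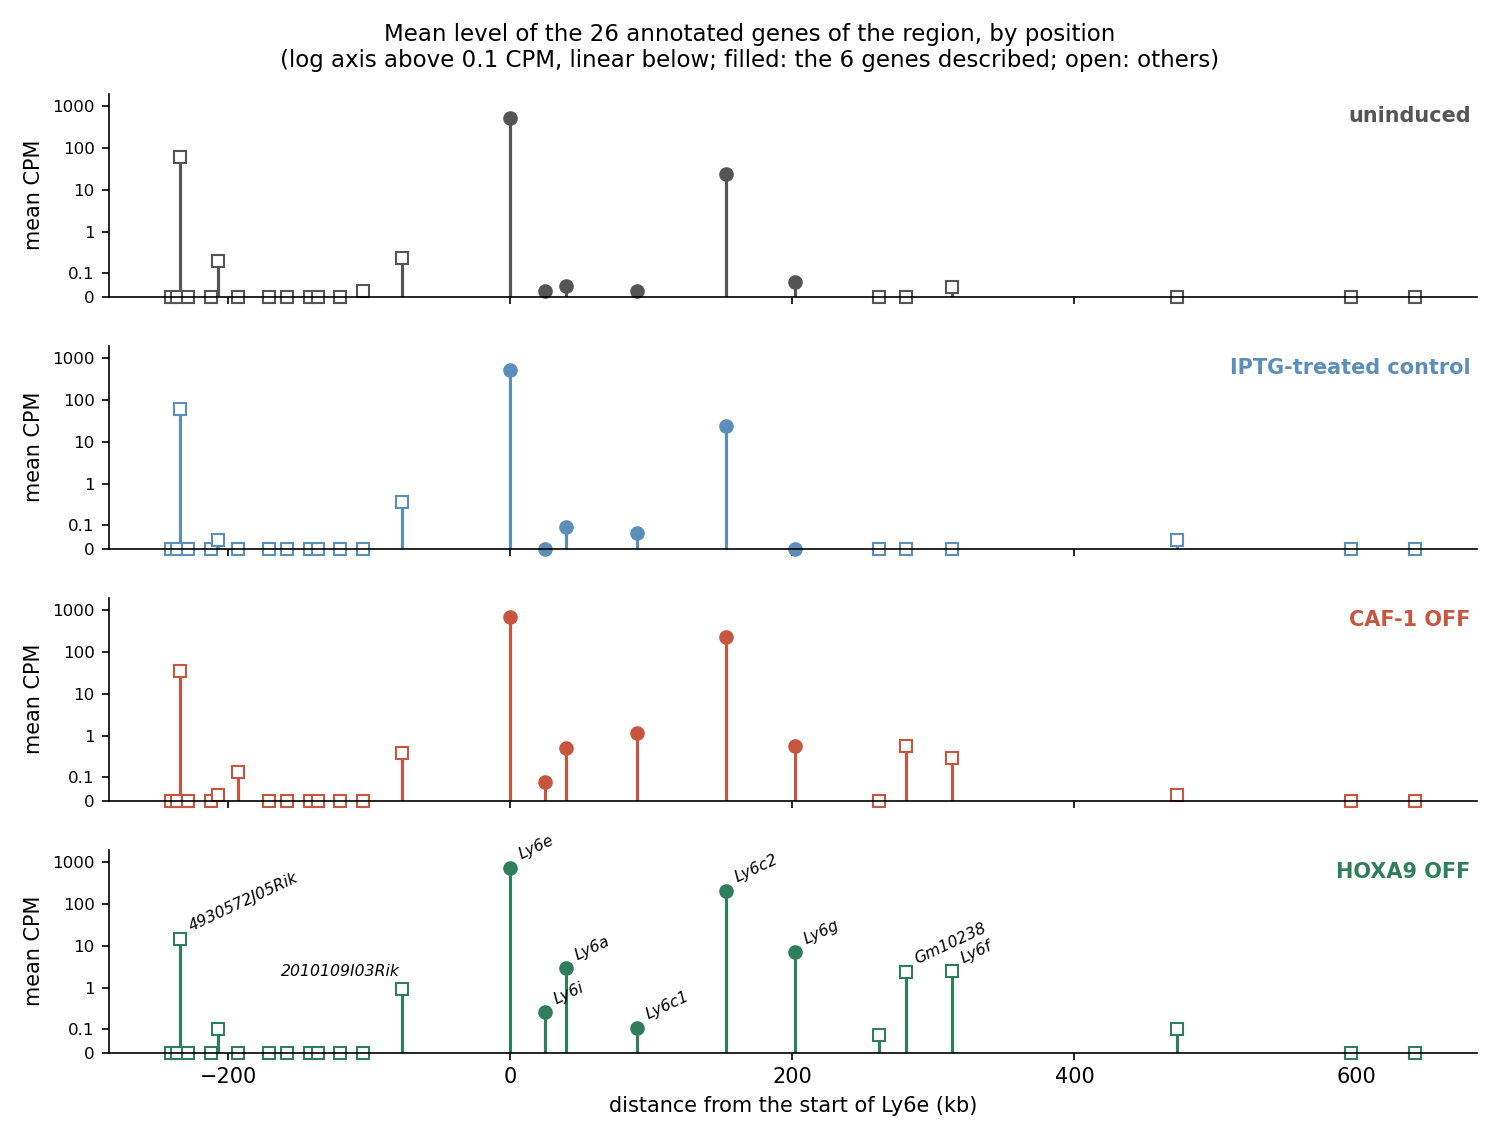
Mean CPM of the 26 annotated genes of the region in each group (vertical axis, log above 0.1 CPM and linear below) by distance from the start of Ly6e in kb (horizontal axis). Filled points are the 6 members and open squares the other genes; Ly6e stands highest in every group, 4930572J05Rik stands above Ly6c2 in both control groups and below it in both treatments, and Ly6a, Ly6g, Gm10238 and Ly6f appear in CAF-1 OFF and stand higher in HOXA9 OFF.

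A list of surface proteins, drawn up for LU domains or GPI anchors, was examined beyond the cluster. It also holds Fcgr4, a transmembrane Fc receptor with neither, which counts among the genes called higher in both treatments and in the medians. Of the 15 tested genes of this list, 5 were higher and 1 lower in CAF-1 OFF (median log2 fold change 0.69), and 9 were higher and 2 lower in HOXA9 OFF (median 1.05), where the medians of all genes were 0.01 and 0.01 and where the higher and lower calls took 10.5% and 3.5% of all genes for CAF-1 OFF and 25.2% and 22.1% for HOXA9 OFF. Cd177, a GPI-linked neutrophil protein, rose from a mean of 0.502 CPM to 9.48 in CAF-1 OFF (log2 fold change 4.22, SE 0.58, edgeR FDR 0.00601) and 111 in HOXA9 OFF (7.77, SE 0.59, FDR 3.68e-05). Fcgr4 rose from 0.570 CPM to 16.8 and 56.4 CPM. Thy1, a GPI-linked protein best known on T cells, split the treatments, with a mean of 16.3 CPM in uninduced cells, 115 in CAF-1 OFF (2.82, SE 0.50, FDR 0.0117), and with 2 and 0 counts in HOXA9 OFF, where it was called lower (FDR 0.000276). Of 27 tested enzymes that build and attach the GPI anchor, 2 were higher and 1 lower in CAF-1 OFF (median 0.02), beside 10.5% and 3.5% of all genes. These CAF-1 OFF counts were near the shares of all genes. In HOXA9 OFF 3 were higher and 4 lower (median -0.05), where 25.2% and 22.1% of all genes were called. Pigk, a subunit of the GPI transamidase, rose in CAF-1 OFF by 1.33 (SE 0.22, FDR 0.00950), and Piga, which acts in the first step of anchor synthesis, fell in HOXA9 OFF by 0.90 (SE 0.20, FDR 0.00536).

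Other gene groups moved alongside the members, and their part in the member changes was not tested. Of 24 tested interferon-responsive genes, 16 were higher and 0 lower in CAF-1 OFF (median 1.71), where 10.5% of all genes were higher, and 24 were higher in HOXA9 OFF (median 3.67), where 25.2% of all genes were higher. Directly compared, 19 were lower and 1 higher in CAF-1 OFF than in HOXA9 OFF, beside 21.4% and 22.2% of all genes. Ly6a was lower too, whereas Ly6e, the other member described above as responding to interferons, differed by -0.07 on the log2 scale (edgeR FDR 0.541). Irf7, a regulator of interferon genes, went from a mean of 0.851 CPM in uninduced cells to 7.79 in CAF-1 OFF and 47.3 in HOXA9 OFF (edgeR FDR 0.00224 and 1.55e-05). Rsad2, an antiviral enzyme, went from 1.04 CPM to 6.74 and 56.6 CPM.

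Of 22 neutrophil maturation genes, 14 were higher and 0 lower in CAF-1 OFF (median 2.15), beside 10.5% and 3.5% of all genes, and 18 were higher and 1 lower in HOXA9 OFF (median 5.58), beside 25.2% and 22.1%. This list also holds Elane, Fcnb and Ms4a3, which the study calls early granulocyte genes, and Prtn3, which it counts with progenitor genes. S100a9, a calcium-binding protein of neutrophils, went from 0.895 CPM to 21.6 in CAF-1 OFF and 1472 in HOXA9 OFF, a gap between the treatments like that of Ly6g in direction. Mmp8, the neutrophil collagenase, ran the other way, from 50.8 CPM to 1514 in CAF-1 OFF and 466 in HOXA9 OFF. Directly compared, 15 of the 22 genes were lower and 3 higher in CAF-1 OFF than in HOXA9 OFF, beside 21.4% and 22.2% of all genes. Of 16 tested monocyte and macrophage genes, 6 were higher in CAF-1 OFF (median 0.84) and 13 in HOXA9 OFF (median 4.18), with 0 lower in both, beside 10.5% and 25.2% of all genes called higher. Csf1r, the receptor for macrophage colony-stimulating factor, went from 4.40 CPM to 14.2 and 659 CPM. Of 11 tested progenitor genes, 2 were higher and 1 lower in CAF-1 OFF, beside 10.5% and 3.5% of all genes, and 3 were higher and 7 lower in HOXA9 OFF (median -1.78), beside 25.2% and 22.1% of all genes. Flt3, a cytokine receptor of early progenitors, fell there from 297 to 5.85 CPM.

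**Figure D5:**
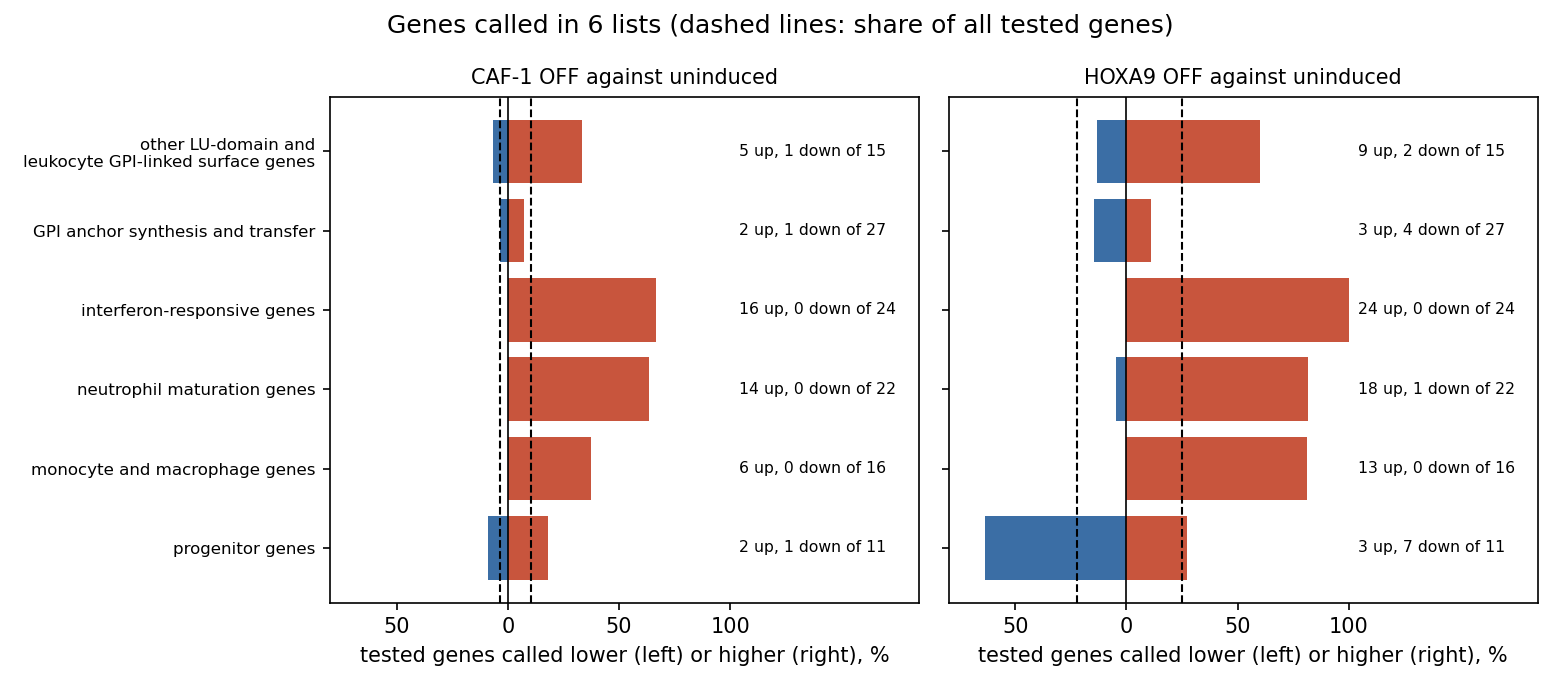
Share of the tested genes of 6 lists called higher (right of 0) or lower (left of 0) in CAF-1 OFF and in HOXA9 OFF against uninduced cells, in percent, with the counts at the right; dashed lines mark the share of all tested genes, and the first list includes Fcgr4. The interferon-responsive, neutrophil and monocyte lists stand past the dashed line on the higher side in both comparisons, and the GPI anchor list stays near or inside it.

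Markers of other cell types were also summed. The T and NK cell list, with 2 of 11 genes tested, summed to 1.63 to 6.16 CPM in the control libraries, 5.95 to 7.37 in CAF-1 OFF and 0.217 to 1.29 in HOXA9 OFF. Of the 2 tested genes, 0 were called in CAF-1 OFF, beside 10.5% of all genes higher and 3.5% lower. In HOXA9 OFF 0 were higher and 1 was lower, beside 25.2% and 22.1%. The lower one was Lck (edgeR FDR 0.00218), named after its values were seen. The B cell list, with 6 of 8 genes tested, summed to 246 to 461 CPM in the control libraries, 321 to 462 in CAF-1 OFF and 60.9 to 74.1 in HOXA9 OFF, mostly from Igll1 and Ebf1, while Ms4a1 was at or under 0.1085 CPM. Of its 6 tested genes, CAF-1 OFF had 1 higher and 0 lower, and HOXA9 OFF had 1 higher and 3 lower, beside 10.5% and 3.5% of all genes in the former and 25.2% and 22.1% in the latter. The higher one was Cd79a in both, named after its values were seen, with means of 2.18 CPM in uninduced cells, 15.4 in CAF-1 OFF (edgeR FDR 0.00689) and 5.99 in HOXA9 OFF (FDR 0.0158). The erythroid and megakaryocyte list summed to 26.2 to 32.3 CPM in the control libraries, to 198 and 224 in CAF-1 OFF, with 6 of 8 tested genes called higher, Pf4 and Itga2b among them, and to 131 and 140 in HOXA9 OFF, with 3 of 8, beside 10.5% and 25.2% of all genes called higher. Hba-a2 and Car1 were at 0 in every library. Endothelium also carries Ly-6C: the stroma and endothelium list, with 3 of 9 genes tested, summed to 230 to 254 CPM in the control libraries, to 350 and 394 in CAF-1 OFF and 373 and 310 in HOXA9 OFF, nearly all of it Pecam1, while Tek was at 0 and Kdr at or under 0.07065 CPM in every library. Of the 3 tested genes, 2 were higher in CAF-1 OFF, Pecam1 (log2 fold change 0.61, edgeR FDR 0.0169) and Col1a1 (FDR 0.0295), and 1 in HOXA9 OFF, Col1a1 (FDR 0.00861), beside 10.5% and 25.2% of all genes. Against the IPTG-treated control 0 of the 3 were called in CAF-1 OFF, beside 9.56% of all genes called higher. Col1a1, a collagen gene named after its values were seen, had 1 and 6 counts in the uninduced libraries, 15 and 53 in CAF-1 OFF and 27 and 47 in HOXA9 OFF.

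Within groups the members did not all lean the same way. In HOXA9 OFF the summed neutrophil list was 30430 CPM in replicate 1 and 21920 in replicate 2, and Ly6g, Ly6c1, Ly6c2, Ly6e and Ly6i were all higher in replicate 1, whereas Ly6a was higher in replicate 2, where the interferon list (827 against 1359 CPM) and the monocyte list (3644 against 6759 CPM) were also higher. In CAF-1 OFF, Ly6c2, Ly6c1, Ly6g and Ly6a were higher in replicate 2, and Ly6e and Ly6i were higher in replicate 1. The neutrophil (14950 against 17260 CPM), interferon (382 against 490 CPM) and monocyte (2913 against 3201 CPM) lists were all higher in CAF-1 OFF replicate 2. Mpo and Ctsg, with means of 7778 and 2892 CPM in CAF-1 OFF, made up much of the neutrophil sum there. With 2 libraries per group the differences between replicates are single differences and were not tested.

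The genes whose log2 CPM followed each member most closely over the 8 libraries were taken by Pearson's r among 9029 or 9030 tested genes whose mean log2 CPM was 3 or more. The 8 points are 4 pairs that share treatments, so r is a description. Ly6c2 went with Acpp, an acid phosphatase (r = 0.997), Fcgr2b, the inhibitory Fc receptor (0.993), and BC017647 (0.993). Acpp stood at 54.7 and 39.7 CPM in the uninduced pair, 303 and 519 in CAF-1 OFF, 59.3 and 37.3 in the IPTG-treated control and 545 and 331 in HOXA9 OFF, higher in the same replicate of every group as Ly6c2 was. Ly6g went with Ankrd9 (0.998), Usp25 (0.996) and Gng2 (0.994), and Ly6a with Pcsk7 (0.994), Cc2d1a (0.992) and Cd300a, an inhibitory myeloid receptor (0.991). Ly6c1 went with Ampd2 (0.986), 1810020D17Rik (0.977) and Fam83d (0.973), and Ly6e with Micall2 (0.994), Mylip (0.990) and Oxr1 (0.990). The lists of 3 share no gene between members.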

How the data were processed

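Bulk RNA-seq was deposited as 1 count file per library for 8 libraries, 2 in each of 4 groups set by the labels. The authors aligned reads with STAR to mm9 and counted them per gene with HTSeq, per the study's methods, and deposited raw counts. The annotation, strand setting and read length are not given in the sources used here. Total gene counts ran from 14044284 to 22423837 per library, and the summary rows of the counter were kept apart.

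Counts were filtered with filterByExpr (minimum count 10), scaled by TMM and fitted over all 8 libraries with edgeR 4.0.16 (glmQLFit and glmQLFTest, R 4.3.3), with Benjamini-Hochberg adjustment over 13080 genes. A gene was called at an FDR under 0.05 and at least 1.5-fold. The procedure was tested on simulated data. Groups with 1 to 3 counts were compared by the ratio of scaled counts with an exact 95% interval, and all-zero groups by a floor of 3 counts per library. Other scalings and filters, DESeq2 1.42.0, a replicate block, fits of only the groups compared, other thresholds and leaving out each library were tried.

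The members, lists and motifs were chosen with earlier results of these data known. Named genes were the 6 members, other Ly6 cluster genes with more than 3 counts, Chaf1b, up to 3 called genes per list with the largest change at a mean log2 CPM of 2 or more, and the 3 genes most alike to each tested member. Positions and transcripts came from GENCODE vM1 on mm9, and start-site windows from RefSeq on GRCm38.p6. Levels per kb used the longest transcript.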

Additional observations from a re-analysis of the deposited data

Results flagged for a closer look

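The effects of the treatments on 3 Ly6 cluster genes differed when CAF-1 OFF and HOXA9 OFF were tested against each other with edgeR's quasi-likelihood test over 2 libraries each. Ly6c1 was 3.41 higher on the log2 scale in CAF-1 OFF (FDR 0.0298), with both CAF-1 OFF libraries above both HOXA9 OFF libraries. Ly6a was at -2.55 (FDR 0.0133) and Ly6g at -3.57 (FDR 0.00318), each lower in both CAF-1 OFF libraries than in both HOXA9 OFF libraries. Of these, Ly6g kept its call without each single library, whereas Ly6a and Ly6c1 did not. Ly6c1 held more than 4 counts in a library only in CAF-1 OFF, and the counts of Ly6a and Ly6g were mostly in HOXA9 OFF. Each gene passed the filter on low counts through the group in which it was high, so these tests describe named genes and are no independent support. The cause of these differences was not tested.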

How the results depend on the processing

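Over all alternatives, 362 of 403 member fold changes stayed on the same side of the call, and 815 of 935 list counts were rated the same. No called change reversed, but some uncalled member values changed sign. With a mean of at least 50 counts required, the number of members called was 1 in CAF-1 OFF and 1 in HOXA9 OFF against uninduced cells, 1 in CAF-1 OFF against the IPTG-treated control and 0 in CAF-1 OFF against HOXA9 OFF, because that filter removes the low-count members. At an FDR under 0.01 and 2-fold the number was 1 for each CAF-1 OFF comparison. Leaving out each library in turn gave 0 to 2 members called in CAF-1 OFF against uninduced cells, 3 to 3 in HOXA9 OFF, 0 to 3 in CAF-1 OFF against the IPTG-treated control and 1 to 3 in CAF-1 OFF against HOXA9 OFF. Where 1 library of a group was left, it was assumed to vary like the other groups. With DESeq2 the Ly6a call in CAF-1 OFF against uninduced cells was lost (adjusted p 0.0539), the Ly6g call there was gained (0.0250) and the Ly6c1 call against HOXA9 OFF was lost (0.0847). Scaling by library size alone gave 2715 genes higher and 3701 lower in HOXA9 OFF against uninduced cells, in place of 3293 and 2886, and 3949 and 2064 in CAF-1 OFF against HOXA9 OFF, in place of 2898 and 2797.

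A replicate block left 3 members called in CAF-1 OFF and 3 in HOXA9 OFF against uninduced cells, and changed no member's call. The labels do not say what a shared replicate number stands for, and the correlation of same-numbered deviations ran from -0.04 to 0.48, so the numbers were not taken as pairs. With 2 libraries per group, and fewer than 50 counts per library in CAF-1 OFF for Ly6a, Ly6c1 and Ly6g, depth limits what can be said of these genes.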
